A study of Mus musculus with 8 samples.

Results

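The carriers of the Slc25 family are built from repeats of a short module, and most of them sit in the inner mitochondrial membrane, where each passes a small set of solutes between the cytosol and the matrix. They exchange ADP for ATP, bring in phosphate, pass amino acids, carboxylates and fatty acyl carnitines, and supply cofactors and iron. Several solutes are served by pairs of closely related carriers whose use differs between cell types: of the aspartate/glutamate carriers, Slc25a12 is known from neurons and muscle and Slc25a13 from liver, and of the ADP/ATP carriers, Slc25a4 is known from muscle and other differentiated tissue and Slc25a5 from proliferating cells.

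Members were all gene probes whose RefSeq accession belongs to a symbol of the form Slc25a followed by a number. The rule found 56 of 39429 gene probes, for 47 genes. RNA came from the neocortex of ICR mouse embryos at E16, with no treatment, genotype or allele named by the labels, and was hybridised on 1-colour arrays. Of the 8 samples, 4 were hand-dissected ventricular and subventricular zones (V/SVZ), the germinal layers that hold dividing progenitors, and 4 were cortical plate (CP), where postmitotic neurons settle. The comparison asks which carrier transcripts differ between these layers. Hand-dissected tissue is a mixture, so fewer cells of a type and less RNA per cell cannot be told apart. The labels do not name the embryos behind each sample, so the p-values rest on a spread that may be technical.

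Per array, 58.4% to 62.9% of gene probes passed the scanner's test for signal well above background, with a 75th percentile of 2113 to 2566 intensity units. All V/SVZ arrays shared one slide and all CP arrays another, so slide and tissue cannot be told apart. After scaling to the array's 75th percentile, spike-in RNAs added at labelling differed between the slides by up to 0.16 on the log2 scale. The 2 called members Slc25a11 and Slc25a16 differed by no more than that. The markers fitted the labels: all 6 progenitor markers favoured V/SVZ and all 6 plate neuron markers favoured CP. Pax6, a progenitor marker, passed the filter only through V/SVZ, so its call is no separate support. Of 10 microglia markers, 8 rose towards V/SVZ and 1 towards CP, with a summed signal of 14.9 to 19.8 times the array's 75th percentile in V/SVZ and 12.9 to 15.1 times in CP. Most of that sum in CP was Itgam, the marker called towards CP, and the other 9 summed to 9.60 to 13.98 in V/SVZ and 3.01 to 4.19 in CP. Of 10 endothelial markers, 2 were higher in each tissue, and their summed signal was 10.1 to 11.1 in V/SVZ and 9.05 to 10.3 in CP. Of 6 interneuron markers, 3 were higher in each tissue, with sums of 6.39 to 7.49 in V/SVZ and 8.29 to 8.96 in CP. The higher CP sum rested on Lhx6, the brightest marker, which was called towards CP. The other 5 summed to 4.11 to 4.59 in V/SVZ, which lay within the range of their CP sums. Of 3 tested choroid plexus and ependyma markers, 2 were higher in V/SVZ, with sums of 0.356 to 0.397 and 0.164 to 0.179. Most of that sum was Foxj1, and the other 2 summed to 0.0822 to 0.102 in V/SVZ and 0.0559 to 0.0805 in CP. The part of these cells in the carrier values was not tested.

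The carriers divided between the tissues about as all genes did, and a smaller share of them differed by 2-fold or more. Of 39 members that could be tested, V/SVZ was higher for 15, CP for 16, and 8 were not called. Of the members that every array detected, those that favoured V/SVZ most were the aspartate/glutamate carrier Slc25a13, the dicarboxylate carrier Slc25a10, the ADP/ATP carrier Slc25a5 and the carnitine carrier Slc25a20. Towards CP the glutamate carrier Slc25a22 led. Calls are from limma at an adjusted p below 0.05, and by the same rule 79.5% of all 19232 genes were called, 35% towards V/SVZ and 44.6% towards CP. The share of carriers called, 31 of 39, was the same as that background. Differences of 2-fold or more were held by 7 carriers (17.9%), 6 towards V/SVZ and 1 towards CP. Among all genes the share was 30.2%, with 13.7% towards V/SVZ and 16.5% towards CP. The 6 include Slc25a18, which no CP array detected. After normexp, another background correction, Slc25a18 was 1.54-fold and Slc25a24 1.65-fold higher in V/SVZ, both below 2-fold. Of the called members, Slc25a15, Slc25a18 and Slc25a45 passed the filter only through V/SVZ and Slc25a34 only through CP. Each was higher in the tissue that let it pass, so its call is no separate support. With detection required on all 8 arrays, 35 members were tested, 12 higher in V/SVZ and 16 in CP. Slc25a51 then entered by its second probe and was called towards CP. The arrays of the tissues did not overlap in 30 of the 39 members, beside 75.2% of all genes. The median difference of the members was -0.07 on the log2 scale, beside -0.09 over all genes. The median absolute difference was 0.51 beside 0.56.

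**Figure D1:**
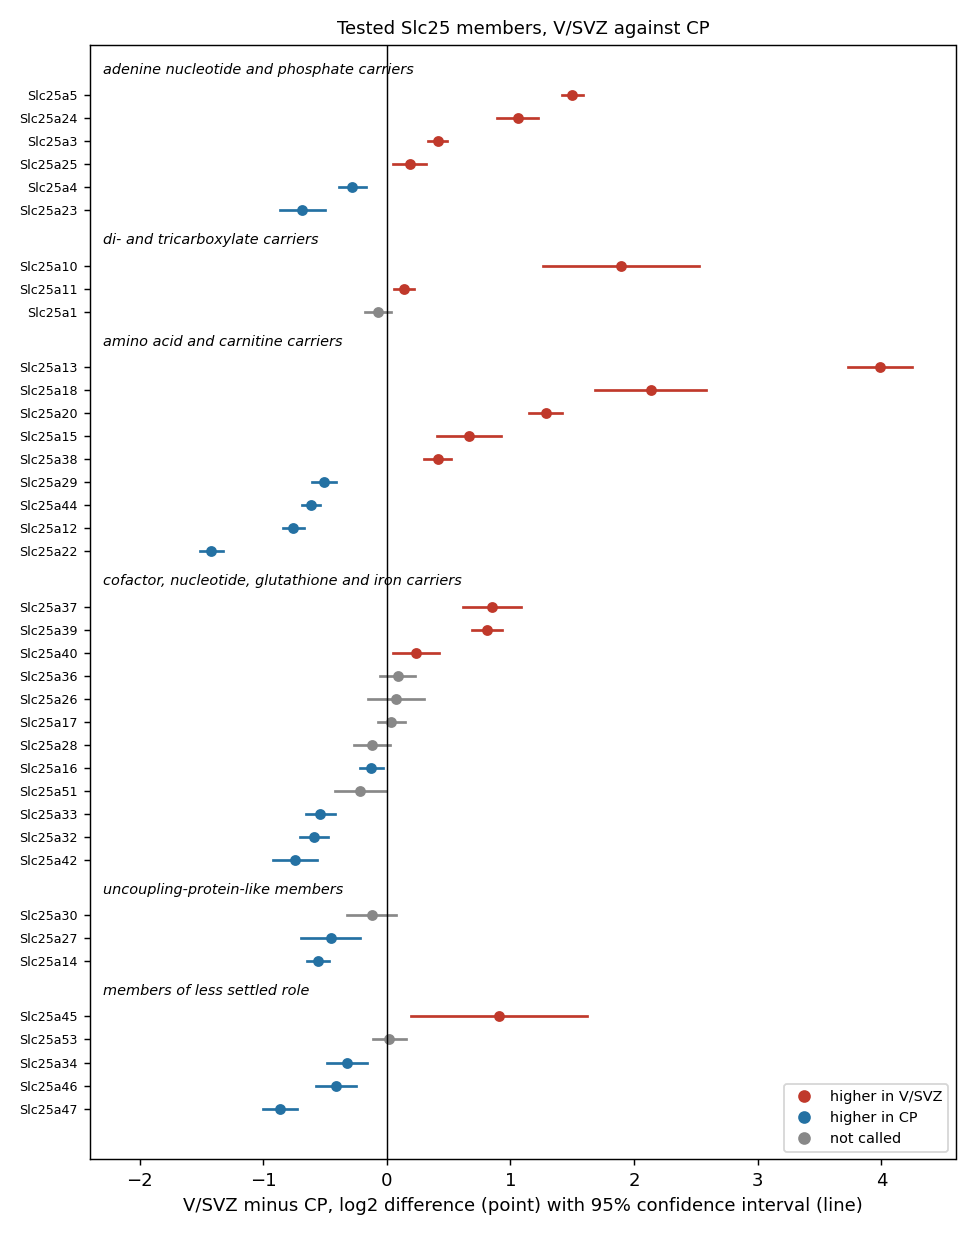
Log2 difference between V/SVZ and CP (horizontal axis, V/SVZ minus CP) of 38 of the 39 tested carriers, grouped by role. Points are limma estimates from 4 arrays per tissue and lines are 95% confidence intervals, with red higher in V/SVZ, blue higher in CP and grey not called. Slc25a13 lies apart at 3.99, and every other member lies between -1.42 and 2.14.

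The aspartate/glutamate carriers went opposite ways. These carriers move aspartate out of mitochondria in exchange for glutamate, a step of the malate-aspartate shuttle that passes reducing equivalents from the cytosol to the matrix. Values are log2 signals relative to the 75th percentile of the array. Slc25a13 measured 0.08, -0.08, -0.14 and -0.05 on the V/SVZ arrays 1 to 4 and -3.82, -4.35, -3.98 and -4.00 on the CP arrays. Every V/SVZ array lay far above every CP array. The difference was 3.99 ± 0.11 (SE, n = 4 per tissue, limma adjusted p = 1.32e-08), or 15.9-fold higher in V/SVZ, and 9.02-fold after normexp, another background correction. Slc25a12 measured 1.29, 1.21, 1.16 and 1.22 in V/SVZ and 1.96, 1.96, 1.99 and 2.0 in CP, and was 1.69-fold higher in CP, a log2 difference of -0.76 ± 0.04 SE (adjusted p = 3.13e-07). The groups did not overlap. Within each array, the ratio of Slc25a12 to Slc25a13 was 26.8-fold higher in CP than in V/SVZ (13.5-fold after normexp).

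The ADP/ATP carriers, which exchange matrix ATP for cytosolic ADP, also went opposite ways. Slc25a5 measured 3.81, 3.78, 3.70 and 3.82 in V/SVZ and 2.29, 2.25, 2.28 and 2.29 in CP. All V/SVZ arrays were higher, by 2.83-fold (log2 difference 1.50 ± 0.04 SE, adjusted p = 6.74e-09). Slc25a4 measured 5.65, 5.67, 5.52 and 5.69 in V/SVZ and 5.98, 5.90, 5.87 and 5.88 in CP. Its CP arrays were higher without overlap, by 1.21-fold (log2 difference -0.28 ± 0.05 SE, adjusted p = 0.000901), but with median scaling the call was lost (-0.19, adjusted p = 0.0975). The ratio of Slc25a4 to Slc25a5 was 3.43-fold higher in CP. The RefSeq table also lists a pseudogene of Slc25a5, and whether the probe reads it was not tested. The testis-type ADP/ATP carrier Slc25a31 passed the background test on 0 of the 8 arrays, at -8.02, -8.34, -6.86 and -8.21 in V/SVZ and -7.87, -7.91, -8.14 and -6.75 in CP.

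Both glutamate carriers, which bring glutamate into the matrix with a proton, were detected on all V/SVZ arrays, and Slc25a22 also on all CP arrays. Slc25a22 measured -0.10, 0.03, 0.00 and 0.00 in V/SVZ and 1.46, 1.38, 1.40 and 1.37 in CP. It was 2.68-fold higher in CP, a log2 difference of -1.42 ± 0.04 SE (adjusted p = 1.44e-08). Slc25a18, known from astrocytes, measured -4.05, -4.30, -4.47 and -4.39 in V/SVZ, where each of the 4 arrays detected it. No CP array detected it, with values of -6.90, -6.30, -6.58 and -5.98. It thus passed the filter only through V/SVZ. The bright tissue's mean set against the detection limit of the CP arrays made it at least 2.64-fold higher in V/SVZ (measured difference 2.14). After normexp it was 1.54-fold higher, below that bound.

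**Figure D2:**
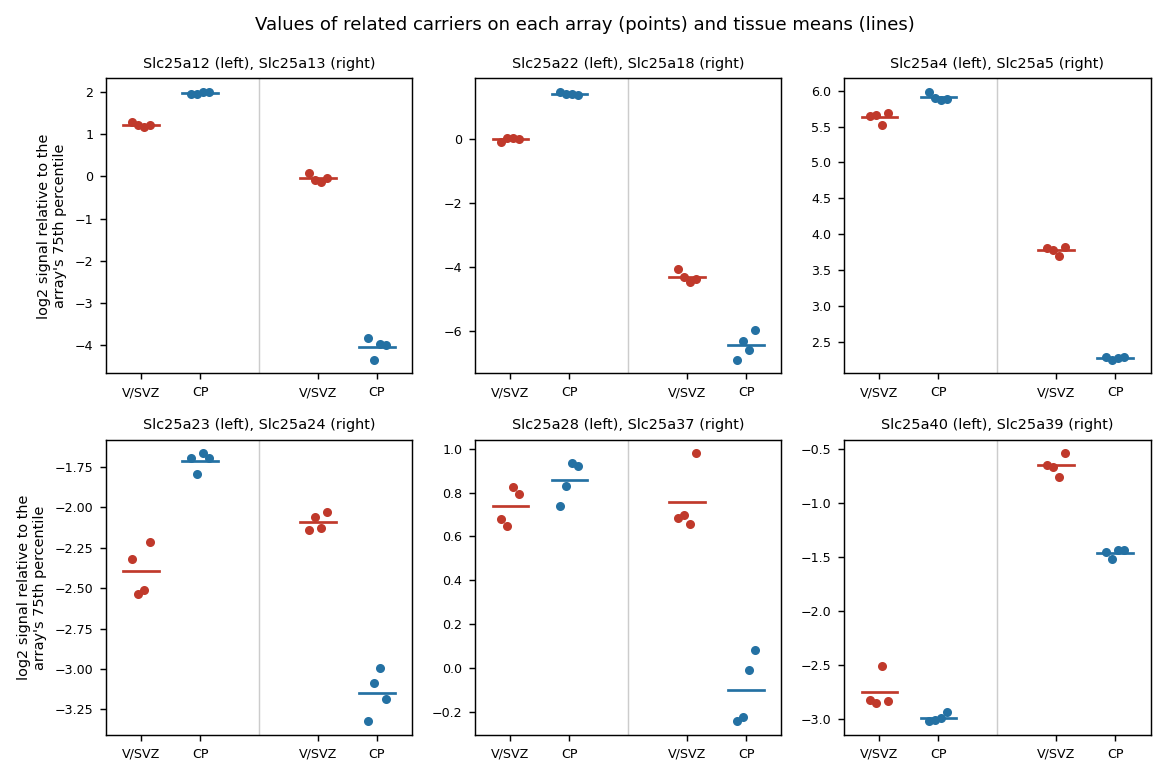
Values of 6 pairs of related carriers on each array (points, log2 signal relative to the array's 75th percentile) with tissue means (lines), V/SVZ in red and CP in blue. Each panel has its own vertical scale, and levels of different probes are not comparable. In the first panel, Slc25a12 has a CP mean of 1.98 above its V/SVZ mean of 1.22, and Slc25a13 falls from -0.04 in V/SVZ to -4.03 in CP.

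Promoter windows of the aspartate/glutamate and ADP/ATP carriers are shown because the members of each pair moved in opposite directions. The windows run from 250 bases before to 50 after the gene start and come from RefSeq, build GRCm38.p6. Of the 47 members, 36 had a window. Motifs were searched on both strands. The core GCATGCGC stood for NRF1, the word AAGGTCA for the ERR factors, the word CACGTG for the E-box, the word CCAAT for the box of that name, the words TTTGGCGC and also TTTCCCGC for E2F factors, and the word GGGGCGGGG for the GC box. Matches are in capitals, 5′ to 3′ on the gene's strand, and no 2 matches in these 4 windows overlap. The lines give Slc25a12 (chr2:71367706-71368005, minus strand), Slc25a13 (chr6:6217124-6217423, minus strand), Slc25a4 (chr8:46211013-46211312, minus strand) and Slc25a5 (chrX:36795347-36795646, plus strand).
Slc25a12: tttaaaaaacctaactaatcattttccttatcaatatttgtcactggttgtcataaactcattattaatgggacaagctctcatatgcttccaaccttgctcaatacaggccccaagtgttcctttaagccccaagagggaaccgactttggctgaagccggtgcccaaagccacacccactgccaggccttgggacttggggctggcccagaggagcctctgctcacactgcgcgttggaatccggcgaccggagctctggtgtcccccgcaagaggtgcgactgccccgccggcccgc
Slc25a13: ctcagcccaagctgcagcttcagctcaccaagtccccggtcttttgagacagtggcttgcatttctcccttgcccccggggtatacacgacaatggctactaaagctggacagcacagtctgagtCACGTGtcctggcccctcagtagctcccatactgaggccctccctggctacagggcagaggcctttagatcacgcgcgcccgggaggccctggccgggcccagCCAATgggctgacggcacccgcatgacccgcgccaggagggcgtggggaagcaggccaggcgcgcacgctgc
Slc25a4: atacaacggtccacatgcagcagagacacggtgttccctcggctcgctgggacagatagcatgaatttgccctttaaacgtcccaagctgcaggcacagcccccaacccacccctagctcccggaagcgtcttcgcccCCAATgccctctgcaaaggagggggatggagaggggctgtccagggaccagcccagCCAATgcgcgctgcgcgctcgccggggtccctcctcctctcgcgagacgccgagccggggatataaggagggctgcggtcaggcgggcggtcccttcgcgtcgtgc
Slc25a5: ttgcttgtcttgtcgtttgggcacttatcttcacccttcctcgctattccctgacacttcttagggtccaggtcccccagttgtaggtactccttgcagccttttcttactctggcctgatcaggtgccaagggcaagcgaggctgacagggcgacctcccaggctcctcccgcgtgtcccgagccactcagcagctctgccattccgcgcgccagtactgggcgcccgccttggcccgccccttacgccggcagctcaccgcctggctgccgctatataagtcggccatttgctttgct
The Slc25a13 window holds an E-box at -125 and a CCAAT box at -22, counted in bases from the start, and the Slc25a4 window holds CCAAT boxes at -112 and -56. The windows of Slc25a12 and Slc25a5 hold none of these letters. Among the 36 members, 19 had a CCAAT box in any of their windows (52.8%, beside 41.1% of all 27025 genes counted in the same way), 7 an E-box (19.4% beside 8.09%) and 6 a GC box (16.7% beside 12.9%). NRF1 cores were in 2 members (5.56% beside 3.05%) and an ERR match in 1 (2.78% beside 5.38%), and of the E2F spellings TTTGGCGC was in 0 (beside 0.585%) and TTTCCCGC in 1 (2.78% beside 1.24%). A match is a description of the letters and not a site.

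The ATP-Mg/phosphate carriers, which calcium regulates and which change the adenine nucleotide pool of the matrix, also split. Slc25a24 measured -2.14, -2.06, -2.13 and -2.03 in V/SVZ and -3.32, -3.09, -3.00 and -3.18 in CP. It was 2.08-fold higher in V/SVZ, with a log2 difference of 1.06 ± 0.07 SE (adjusted p = 2.65e-06), and 1.65-fold after normexp. Slc25a23 measured -2.32, -2.54, -2.51 and -2.21 in V/SVZ and -1.69, -1.79, -1.67 and -1.70 in CP, where it was 1.61-fold higher (adjusted p = 7.40e-05). Neither carrier's groups overlapped. The third tested member of this group, Slc25a25, was slightly higher in V/SVZ (log2 difference 0.18 ± 0.06 SE, adjusted p = 0.0191), a call that was lost with spike-in scaling (0.11, adjusted p = 0.0765). The ratio of Slc25a23 to Slc25a24 was 3.34-fold higher in CP (2.32-fold after normexp). The phosphate carrier Slc25a3, which supplies phosphate for ATP synthesis, measured 3.62, 3.60, 3.53 and 3.58 in V/SVZ and 3.18, 3.15, 3.15 and 3.20 in CP. It was 1.33-fold higher in V/SVZ without overlap (adjusted p = 8.89e-06), and its second probe gave a difference of 0.62 beside 0.41 for the first. Among the 6 tested carriers of adenine nucleotides and phosphate, 4 were thus higher in V/SVZ and 2 in CP, beside 35% and 44.6% of all genes.

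Of the di- and tricarboxylate carriers, one differed by a large factor. Slc25a10, which exchanges malate or succinate for phosphate, measured -3.04, -3.03, -2.79 and -2.49 in V/SVZ and -5.16, -5.25, -4.32 and -4.19 in CP. The V/SVZ arrays were all higher, although the CP arrays spread widely (SD 0.55 against 0.26 in V/SVZ). The difference of 1.90 ± 0.27 SE (adjusted p = 0.00029) is 3.72-fold, and 2.08-fold after normexp. Slc25a11, the oxoglutarate carrier of the malate-aspartate shuttle, was 1.1-fold higher in V/SVZ (adjusted p = 0.00537), and after normexp its difference was -0.05 and not called (adjusted p = 0.413). Slc25a1, the citrate carrier that feeds lipid synthesis in the cytosol, measured 1.51, 1.5, 1.43 and 1.55 in V/SVZ and 1.64, 1.52, 1.61 and 1.51 in CP. Its arrays overlapped, and its difference of -0.07 (95% interval -0.18 to 0.03) was not called (adjusted p = 0.173). With spike-in scaling Slc25a1 was called towards CP (-0.14, adjusted p = 0.0395), and after normexp it stood at 0.08 and was not called.

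All 9 tested amino acid and carnitine carriers were called, 5 towards V/SVZ and 4 towards CP. Among the 5, Slc25a15 and Slc25a18 passed the filter only through V/SVZ, so their calls are no separate support. Of all genes 79.5% were called, 35% towards V/SVZ and 44.6% towards CP. Slc25a20, which brings acylcarnitines into the matrix for fatty acid oxidation, measured -0.95, -0.95, -1.0 and -0.87 in V/SVZ and -2.08, -2.25, -2.33 and -2.24 in CP. It was 2.44-fold higher in V/SVZ (log2 difference 1.29 ± 0.06 SE, adjusted p = 2.11e-07). Slc25a38, a glycine carrier of haem synthesis, was 1.33-fold higher in V/SVZ. Towards CP, Slc25a44, the carrier of branched-chain amino acids, measured -1.76, -1.68, -1.72 and -1.73 in V/SVZ and -1.10, -1.15, -1.10 and -1.10 in CP. It was 1.53-fold higher in CP (adjusted p = 5.21e-07), and its second probe gave -0.63 beside -0.61. Slc25a29, a carrier of basic amino acids, was 1.42-fold higher in CP. The ornithine carrier Slc25a15 measured -5.38, -5.25, -5.44 and -5.24 in V/SVZ and failed the background test on all CP arrays (-5.87, -5.74, -6.25 and -6.11). It passed the filter only through V/SVZ and was at least 1.30-fold higher there (measured difference 0.66). After normexp its difference was -0.10 and not called (adjusted p = 0.12).

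Among the 13 carriers of cofactors, nucleotides, glutathione and iron, 3 favoured V/SVZ, 5 favoured CP and 5 were not called, and no difference reached 2-fold. Of all genes 35% favoured V/SVZ, 44.6% favoured CP and 30.2% differed by 2-fold or more. Slc25a37, mitoferrin 1, which brings iron into mitochondria and is known from developing red cells, measured 0.69, 0.70, 0.66 and 0.98 in V/SVZ and -0.24, -0.22, -0.01 and 0.08 in CP. It was 1.81-fold higher in V/SVZ without overlap (log2 difference 0.85 ± 0.10 SE, adjusted p = 8.82e-05). A second probe was not detected on any CP array. Slc25a28, the related mitoferrin 2 of most other cells, measured 0.68, 0.65, 0.82 and 0.79 in V/SVZ and 0.74, 0.83, 0.94 and 0.92 in CP. These groups overlapped, and the difference of -0.12 (95% interval -0.26 to 0.02) was not called (adjusted p = 0.106). Of 12 erythroid markers, 6 were tested, of which 4 favoured V/SVZ and 1 favoured CP. Among the 4, Klf1 passed the filter only through V/SVZ. Alas2, the haem synthesis enzyme of red cells, had a difference of 0.47 ± 0.10 SE (adjusted p = 0.00282). The summed signal of the 6 was 17.2 to 19.9 times the 75th percentile in V/SVZ and 18.9 to 21.1 times in CP. Most of it was Hemgn, the marker called towards CP, and the other 5 summed to 1.42 to 2.02 in V/SVZ and 1.15 to 1.25 in CP. Epb42, Rhag, Trim10 and Hbb-bh1 were among those that did not pass the filter. The part of red cells in the Slc25a37 value was not tested.

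Slc25a39, which imports glutathione into mitochondria, measured -0.64, -0.66, -0.75 and -0.54 in V/SVZ and -1.45, -1.52, -1.43 and -1.43 in CP. It was 1.75-fold higher in V/SVZ (adjusted p = 1.74e-06), and its relative Slc25a40 was 1.18-fold higher there (adjusted p = 0.0265). Slc25a40 lost its call with spike-in scaling (0.17, adjusted p = 0.191) and without CP array 1, 2 or 3 (adjusted p = 0.0543 to 0.0608). Towards CP stood Slc25a42, a carrier of coenzyme A, at -0.52, -0.48, -0.34 and -0.56 in V/SVZ and 0.10, 0.41, 0.25 and 0.31 in CP. It was 1.68-fold higher in CP (adjusted p = 3.76e-05). Slc25a32, which is known to carry folate or flavin, measured -2.69, -2.75, -2.65 and -2.66 in V/SVZ and -2.0, -2.06, -2.15 and -2.18 in CP, and was 1.51-fold higher in CP (adjusted p = 9.52e-06). The CP arrays of both lay above all V/SVZ arrays. The pyrimidine nucleotide carrier Slc25a33 was 1.45-fold higher in CP. Slc25a16 was 1.09-fold higher in CP (adjusted p = 0.0193), and it was not called with quantile scaling (adjusted p = 0.0807), with median scaling (adjusted p = 0.639), with no filter on dim probes (adjusted p = 0.0518) or without CP array 1 (adjusted p = 0.0523).

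Slc25a36 (a pyrimidine nucleotide carrier), Slc25a26 (S-adenosylmethionine), Slc25a17 (a peroxisomal member) and Slc25a51 (NAD) were not called. Their 95% intervals were -0.05 to 0.23, -0.15 to 0.30, -0.07 to 0.14 and -0.42 to -0.01. For Slc25a26 and Slc25a51 the answer depended on the probe. A second Slc25a26 probe was higher in V/SVZ by 0.57 (adjusted p = 0.000501 over all probes, of which 79.7% were called), and a second Slc25a51 probe was higher in CP, with a difference of -0.53 (adjusted p = 0.00204). The first Slc25a51 probe has a value on only 3 V/SVZ arrays, since 1 spot was marked as an outlier. Slc25a51 was called towards CP in 7 of 18 other settings, and Slc25a28 in 4. Of 8 members with 2 tested probes, 7 had both detected in each tissue, and in 5 of these both probes were called in the same direction.

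The uncoupling-protein-like members Slc25a14 and Slc25a27, both known from brain, were higher in CP. Slc25a14 measured 2.37, 2.39, 2.29 and 2.37 in V/SVZ and 2.97, 2.93, 2.91 and 2.86 in CP. It was 1.47-fold higher in CP, a log2 difference of -0.56 ± 0.04 SE (adjusted p = 2.81e-06), and Slc25a27 1.37-fold (adjusted p = 0.00401). The third, Slc25a30, had a difference of -0.12 (95% interval -0.32 to 0.07) and was not called. Of 5 tested members of less settled role, 3 were higher in CP, beside 44.6% of all genes. Among the 3, Slc25a34 passed the filter only through CP. Slc25a47, known from liver, measured -2.11, -2.07, -1.92 and -2.10 in V/SVZ and -1.14, -1.13, -1.18 and -1.30 in CP, 1.82-fold higher in CP (adjusted p = 2.86e-06). Slc25a46, an outer membrane protein of mitochondrial dynamics, was 1.33-fold and Slc25a34 1.25-fold higher in CP. The Slc25a34 call was lost with quantile scaling (adjusted p = 0.315) and with median scaling (adjusted p = 0.064). Slc25a45, which passed the filter only through V/SVZ, was called higher there by 0.91 ± 0.31 SE. Only 1 of the 4 CP arrays detected it, so the size is uncertain. CP array 3 lay at -4.69, within the V/SVZ range of -4.91 to -4.60, while the other CP arrays ran from -6.30 to -5.72. It lost its call after normexp (0.11, adjusted p = 0.376) and in 6 of the 8 fits that left out 1 array, at adjusted p = 0.0522 to 0.0609. Slc25a53 was not called (0.02, 95% interval -0.12 to 0.15).

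Each of the 8 members that did not pass the filter missed the background test on at least 1 array of each tissue. Slc25a21, Slc25a31, Slc25a41, Slc25a48 and Slc25a54 were not well above background on any of the 8 arrays. Slc25a2, an ornithine carrier, was well above background on 3 CP arrays and on 0 V/SVZ arrays, Slc25a35 on 2 V/SVZ arrays and Slc25a43 on 1. Without the filter the V/SVZ minus CP difference was -1.60 ± 0.35 SE for Slc25a2 and 1.91 ± 0.09 SE for Slc25a35. Most arrays did not detect them, so these sizes are uncertain. The other members of this group lay between -0.63 and 0.13.

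Ratios of related carriers within each array were compared between the tissues for 8 pairs. The pairs and the order within them were set with these values known, so the ratios are a description with no test, and their shared direction is no finding. The ratio of Slc25a28 to Slc25a37 was 1.96-fold higher in CP, that of Slc25a25 to Slc25a24 1.83-fold, that of Slc25a33 to Slc25a36 1.54-fold, that of Slc25a40 to Slc25a39 1.49-fold and that of Slc25a14 to Slc25a30 1.35-fold. After normexp the ratio of Slc25a25 to Slc25a24 was 1.26-fold higher in CP.

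Genes of the pathways that the carriers serve were counted in the same way. Of 10 genes of the carnitine shuttle and fatty acid oxidation, which Slc25a20 serves, 8 favoured V/SVZ and 2 favoured CP, with a median of 1.54 on the log2 scale. Cpt1a, the outer membrane enzyme that makes acylcarnitines, was 15.5-fold, the acyl-CoA dehydrogenase gene Acadl 7.43-fold and Cpt2, which takes carnitine off again in the matrix, 3.86-fold higher in V/SVZ. Cpt1b, the muscle-type form, was 1.65-fold higher in CP. Of 8 genes of the mitochondrial folate pathway and its cytosolic counterparts, 6 were higher in V/SVZ and 2 in CP, with a median of 0.74. Shmt1, the cytosolic serine hydroxymethyltransferase, was 4.41-fold (2.72-fold after normexp) and Mthfd1l 2.50-fold higher in V/SVZ. Aldh1l2, which oxidises formyl folate in mitochondria, was 2.72-fold higher in CP. Slc25a32, known to carry folate or flavin, was 1.51-fold higher in CP. These medians stand beside -0.09 over all genes. The counts of both lists stand beside 35% of all genes called towards V/SVZ and 44.6% towards CP.

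The malate-aspartate shuttle also needs enzymes on both sides of the membrane. Of 6 tested genes of the shuttle and of glutamate metabolism, 1 favoured V/SVZ and 3 favoured CP, beside 35% and 44.6% of all genes. The aminotransferase gene Got1 was 1.19-fold higher in CP (adjusted p = 0.00584), which was not called with median scaling (adjusted p = 0.165), and Glud1, glutamate dehydrogenase, was 1.25-fold higher in V/SVZ. Mdh1 and Mdh2, the malate dehydrogenases, were not called (-0.07 and -0.06). Of 10 genes of citrate export and use, 2 were higher in V/SVZ and 5 in CP: Me1, a malic enzyme, was 2.25-fold and the fatty acid synthase gene Fasn 1.81-fold higher in CP, and Idh2, the mitochondrial isocitrate dehydrogenase, 2.08-fold higher in V/SVZ.

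**Figure D3:**
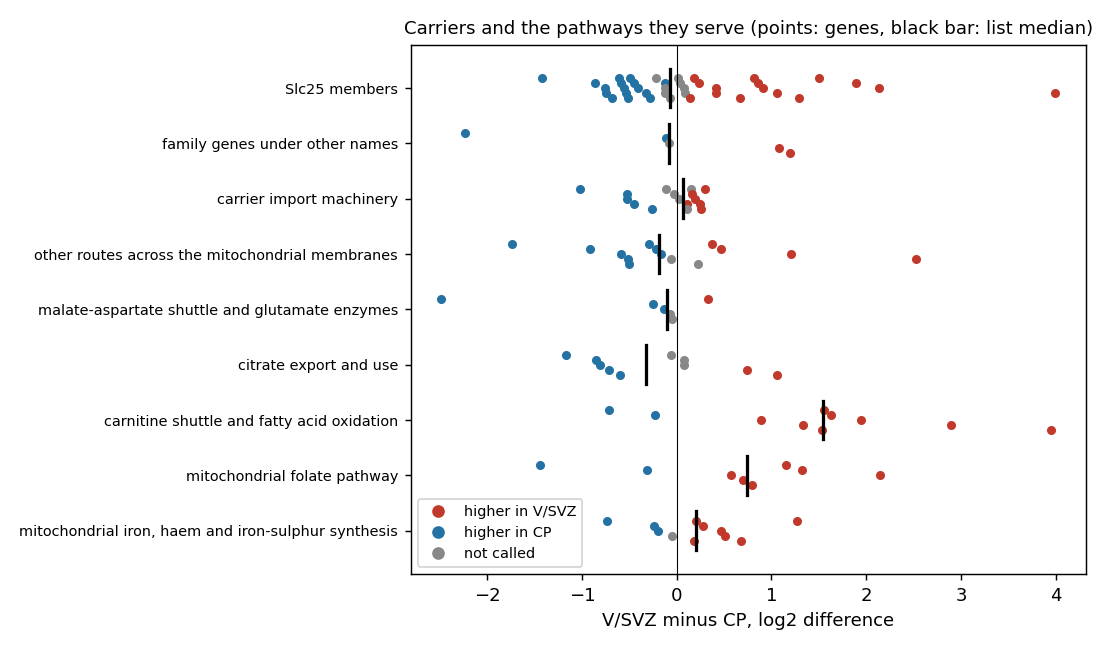
Log2 difference between V/SVZ and CP (horizontal axis, V/SVZ minus CP) of each tested gene in the carrier family and in 8 lists of related genes. Points are genes, red higher in V/SVZ, blue higher in CP and grey not called, spread vertically only for legibility, and black bars are list medians, which run from -0.33 for citrate use to 1.54 for fatty acid oxidation.

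Of 11 genes of mitochondrial iron, haem and iron-sulphur synthesis, 7 favoured V/SVZ and 3 favoured CP, with a median of 0.21. Over all genes 35% favoured V/SVZ and 44.6% favoured CP. The scaffold gene Iscu was 1.59-fold higher in V/SVZ and Abcb10, a transporter of the inner membrane, 1.67-fold higher in CP. Of 16 genes of the machinery that imports carrier proteins, 6 favoured V/SVZ and 5 favoured CP, with a median of 0.07 (1 of the 16 at 2-fold or more). That one was Tomm70a, the outer membrane receptor for carrier precursors, 2.03-fold higher in CP. Timm9, a chaperone of the space between the membranes, was 1.44-fold and Agk, a subunit of the carrier translocase, 1.43-fold higher in CP. The 6 import genes that favoured V/SVZ had smaller differences, at most 0.29 on the log2 scale. Of 14 genes of other routes across the membranes, 4 favoured V/SVZ and 8 favoured CP, beside the same 35% and 44.6%. The sideroflexin gene Sfxn5 was 5.77-fold higher in V/SVZ and its relative Sfxn3 3.33-fold higher in CP.

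Family genes with other names gave 2 higher in V/SVZ, 2 higher in CP and 1 not called, where 79.5% of all genes were called. Ucp1, the uncoupling protein of brown fat, was at background level on all V/SVZ arrays and measured -4.53, -4.42, -4.45 and -4.65 in CP. It passed the filter only through CP, and was at least 3.09-fold higher there, and 2.11-fold after normexp, below that bound. Ucp2 was 2.29-fold and Ucp3 2.11-fold higher in V/SVZ (1.75-fold and 1.96-fold after normexp).

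**Figure D4:**
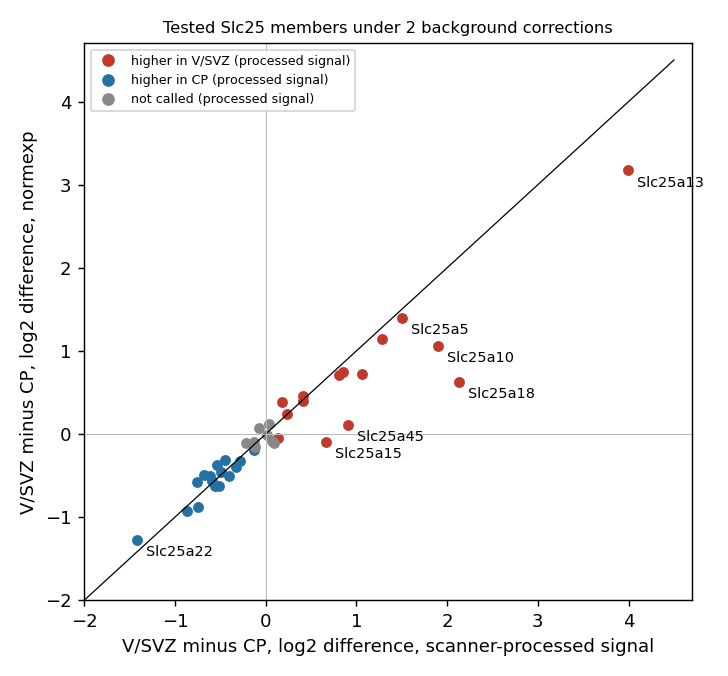
Log2 difference between V/SVZ and CP of the 39 tested carriers from the scanner-processed signal (horizontal axis) and after normexp background correction (vertical axis), with a line where both are equal. Colours give the call from the processed signal, red higher in V/SVZ, blue higher in CP and grey not called. Slc25a13 moves from 3.99 to 3.17, Slc25a18 from 2.14 to 0.62 and Slc25a10 from 1.90 to 1.06, while Slc25a22 stays near the line at -1.42 and -1.27.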

How the data were processed

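Per the labels' protocols, 100 ng of total RNA was amplified and Cy3-labelled (Low Input Quick Amp). The deposited intensity values were made by Agilent Feature Extraction 10.7.1.1, per the file headers: a processed signal, background-subtracted within the array, and median signals of spot and background. A second deposited file, by the authors, holds log2 values. Set against the scanner values centred on each probe's median, a column matched the array of the other tissue with its number (r = 1.00) and opposed its own (r = -0.95 to -0.94). Its direction was therefore turned for use as an alternative. Its column medians ran from -0.03 to 0.02. The number of value columns left unmapped was 0.

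Spots of a probe were averaged as log2 processed signal, leaving out control spots and 142 to 258 outlier-marked spots per array, and centred on the array's 75th percentile. No gene spot was saturated. A probe was tested if well above background on all 4 arrays of a tissue and valued on at least 3 of each, which left 23860 probes. A GRCm38.p6 RefSeq table, matched on accession, named 26761 of 39429 probes. The array headers name mm9, so coordinates are given only for RefSeq promoter windows. The tested probe of highest mean signal stood for its gene (19232 genes, 13831 with a symbol). The V/SVZ minus CP difference came from limma 3.58.1 under R 4.3.3 (lmFit, eBayes). Its p-values were adjusted by Benjamini-Hochberg over the genes tested, or over all probes where a second probe is given. "At least" folds set the bright tissue's mean against, per dim array, the higher of the probe's own value and the lowest signal well above background. The procedure was also tested on simulated data.

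The members and lists were chosen with earlier results of these data known. Values on every array are given for the 8 largest called differences each way among members well above background on all arrays, members with a bound, and 10 members fixed by name. Slc25a15, Slc25a18 and the pairs aside, other members are given by difference. Other lists are shown by their 3 largest called differences plus the called gene that most opposed the majority. Comparisons of pairs were added after seeing the data. Alternatives covered scaling, background correction (normexp, offset 50, on median signals), filter, probe choice, replicate block, variance model, the deposited table and each array left out. The number of arrays limits the precision. Some genes that these rules select are not reported here.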

Additional observations from a re-analysis of the deposited data

Results flagged for a closer look

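Among 77 groups of 4 arrays of the tested members, 6 held an array whose gap to its nearest neighbour exceeded Dixon's 95% limit, and chance gives about 5% of groups. Slc25a37 measured 0.98 on V/SVZ array 4, beside 0.66 to 0.70 on the other V/SVZ arrays. Slc25a33 measured 0.27 on the same array, beside 0.44 to 0.46. Slc25a40 measured -2.51 on V/SVZ array 3, and its other V/SVZ arrays lay at -2.86 to -2.83. Slc25a46 measured 2.28 on V/SVZ array 2, beside at most 2.07. In CP, Slc25a29 measured 0.34 on array 1 (others 0.27 to 0.28) and Slc25a44 measured -1.15 on array 2 (others -1.10). In the fits that left out each of these arrays, the calls of these 6 members were the same except for Slc25a40, which was called without V/SVZ array 3 and lost its call without CP array 1, 2 or 3.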

How the results depend on the processing

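The number of members higher in V/SVZ was 15 in the reported setting and 12 to 16 in 10 other settings, and 13 to 15 when 1 array was left out. The number higher in CP was 16, with 13 to 19 in other settings and 16 to 17 with 1 array left out. Of 39 tested members, 27 kept their call, or lack of one, in every setting in which they had a value. The sign of a called value turned only after normexp, for Slc25a11 (-0.0452) and Slc25a15 (-0.10), both then not called; for Slc25a15 the probe was dim in CP, and the cause was not tested. With spike-in scaling 12 members were higher in V/SVZ and 19 in CP, and with median scaling 15 and 13. Replicate numbers are shared by the tissues. Deviations of same-numbered arrays correlated at 0.10 for number 3 and at 0.20 to 0.34 for the others. For V/SVZ arrays 1, 2 and 4 the same-numbered CP array correlated best, and for V/SVZ array 3 CP array 2 did. Whether same-numbered arrays are pairs was not settled, and the reported fit took them as unpaired. With the number as a replicate block, 15 members were higher in V/SVZ and 18 in CP. Slc25a28 (adjusted p = 0.0333) and Slc25a51 (adjusted p = 0.013) were then called towards CP. Without any filter on dim probes all 47 members were tested, 16 higher in V/SVZ and 17 in CP. Slide could not be entered, since each slide held 1 tissue. The dimmest spike-in well above background was brighter than 8 of the 39 members, so a slide difference at their signals was not measured.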

Other observations

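Ucp2 and Ucp3 had nearly the same value on each array: their probes differed by 0.00 to 0.31 on the log2 scale, while Ucp2 itself ranged from -3.70 to -2.07. Whether the 2 probes read separate transcripts was not tested, since the files hold no probe sequences.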
